A study of Mus musculus with 9 samples.

Results

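The genes described here encode the machinery that copies nuclear DNA, from the complexes that mark origins to the enzymes that supply nucleotides. The list held 39 symbols, and 38 of them were rows of the deposited table of 15824 genes. Cdt1, the licensing factor that loads the MCM helicase with Cdc6, had no row of that symbol and was not analysed here. Members were found in the table by gene symbol. RNA came from cardiomyocytes of CD1 mice, with 3 libraries each at postnatal day 1 (P1), day 14 (P14) and day 56 (P56). The labels name no other treatment, allele or sex for these groups. Each library pooled hearts, 12 at P1 and 6 to 7 at the later ages, so a library is a pool and not an animal. The 3 libraries per age are described as biological triplicates. Part of the protocol text mentions animals 3 days after surgery, but no label of these 9 libraries names an operated group.

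Replication is prepared in G1, when the origin recognition complex, Cdc6 and Cdt1 load the ring-shaped MCM helicase onto DNA. In S phase the Dbf4-dependent kinase, Cdc45 and the GINS complex switch that helicase on, polymerase α-primase lays down primers, and polymerases δ and ε extend them with the clamp PCNA. Many of these genes are transcribed under E2F factors as a cell enters the cycle. Mouse cardiomyocytes still copy their DNA around birth, many end with more than 1 nucleus, and most then leave the cell cycle.

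Promoter sequences are shown first because E2F sites are the feature best known to be shared by these genes. RefSeq windows of build GRCm38.p6, each from 250 bases before to 50 bases after an annotated start, were found for 32 of the 38 members (37 windows). The letters searched on both strands were TTTGGCGC, TTTCCCGC, TTTGCCGC and TTTCGCGC for E2F and CCAAT for the box bound by NF-Y. The E2F letters can overlap each other on opposite strands. They were found in 11 of 32 members (34.4%) and in 490 of 10981 genes of the count table with a window (4.46%). CCAAT was found in 20 of 32 members (62.5%) and in 42.1% of those 10981 genes. A match of letters describes the window and does not show binding. The stretches below end at the base before the start, run 5′ to 3′ on the strand of the gene and carry these letters, or their reverse complement, in capitals. Mcm5 and Mcm6 are helicase subunits with E2F letters, Pola1 has them with a smaller fall in RNA, Rrm1 has CCAAT only, and Chaf1b, the member with the lowest P56 level relative to P1, has neither.
Mcm5 (chr8:75109339-75109508, plus strand): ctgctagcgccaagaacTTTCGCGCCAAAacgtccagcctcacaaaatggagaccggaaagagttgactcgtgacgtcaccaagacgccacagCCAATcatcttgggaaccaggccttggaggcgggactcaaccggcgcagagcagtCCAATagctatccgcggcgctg
Mcm6 (chr1:128359706-128359835, minus strand): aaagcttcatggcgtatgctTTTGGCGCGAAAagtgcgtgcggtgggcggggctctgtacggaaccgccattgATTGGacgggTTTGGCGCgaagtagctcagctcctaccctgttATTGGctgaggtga
Pola1 (chrX:93632156-93632305, minus strand): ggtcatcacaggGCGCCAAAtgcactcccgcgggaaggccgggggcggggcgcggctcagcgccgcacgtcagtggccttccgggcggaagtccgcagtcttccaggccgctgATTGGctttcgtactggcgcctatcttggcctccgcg
Rrm1 (chr7:102441585-102441694, plus strand): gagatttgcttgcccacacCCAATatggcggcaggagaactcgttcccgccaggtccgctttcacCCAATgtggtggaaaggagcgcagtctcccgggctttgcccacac
Chaf1b (chr16:93883751-93883900, plus strand): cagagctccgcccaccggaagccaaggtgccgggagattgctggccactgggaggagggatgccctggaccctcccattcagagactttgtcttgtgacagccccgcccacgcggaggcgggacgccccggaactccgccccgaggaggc

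Libraries held 36619799 to 58538025 counts, and the 38 members together 9635 to 38179 of them. Levels are CPM, counts relative to the library total after TMM scaling. Log2 changes are fitted values ± standard error (SE) from edgeR's quasi-likelihood test on 3 libraries per age, and a gene was called when its Benjamini-Hochberg adjusted p over 15817 genes was under 0.05. Means are given ± SD (n = 3). The labels' protocols describe isolation of whole cells and also sorting of nuclei that carry Pcm1, and do not settle which applied to each library. Cardiomyocyte genes were high throughout (mean log2 level of 10 genes 10.3 to 10.9 in each library). Markers of fibroblasts, endothelium, leukocytes, epicardium, smooth muscle and pericytes (32 of 35 in the table) were present at every age. Their summed level lay between 266 and 424 CPM in P1 libraries, 470 and 1390 in P14 libraries and 110 and 240 in P56 libraries, and 1 of the 32 (Msln) reached 0 counts, at P56. In such bulk samples, fewer replicating cells and less RNA per cell cannot be told apart.

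All 38 members fell from P1 to P14, against 27.5% of all genes tested, and 0 rose by edgeR's test (0 at an unadjusted p under 0.05 and 0 by DESeq2). In each of the 38 every P14 library lay below every P1 library, a pattern seen in 32.9% of all genes (the opposite order in 31%). Of all genes, 28.4% rose. The median log2 change was −1.65, against 0.00 over all genes tested, and in 30 members the called fall was 1 or more on that scale. The changes ranged from −0.26 for Rfc1 to −3.77 for Orc1. From P14 to P56 a further 21 members fell (28.5% of all genes fell), 3 rose (27.5% of all genes rose) and 14 were not past the threshold, with a median of −0.53 (−0.02 over all genes). In 21 members the P56 libraries lay below the P14 libraries (29.3% of all genes) and in 3 above them (30.2%). Across the whole span from P1 to P56, 37 fell (31.7% of all genes), 0 rose by edgeR's test (0 unadjusted, 0 by DESeq2) and Orc2 was not past the threshold. The median over that span was −2.40 (−0.03 over all genes), and in 38 members the P56 libraries lay below the P1 libraries (37.1% of all genes).

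**Figure D1:**
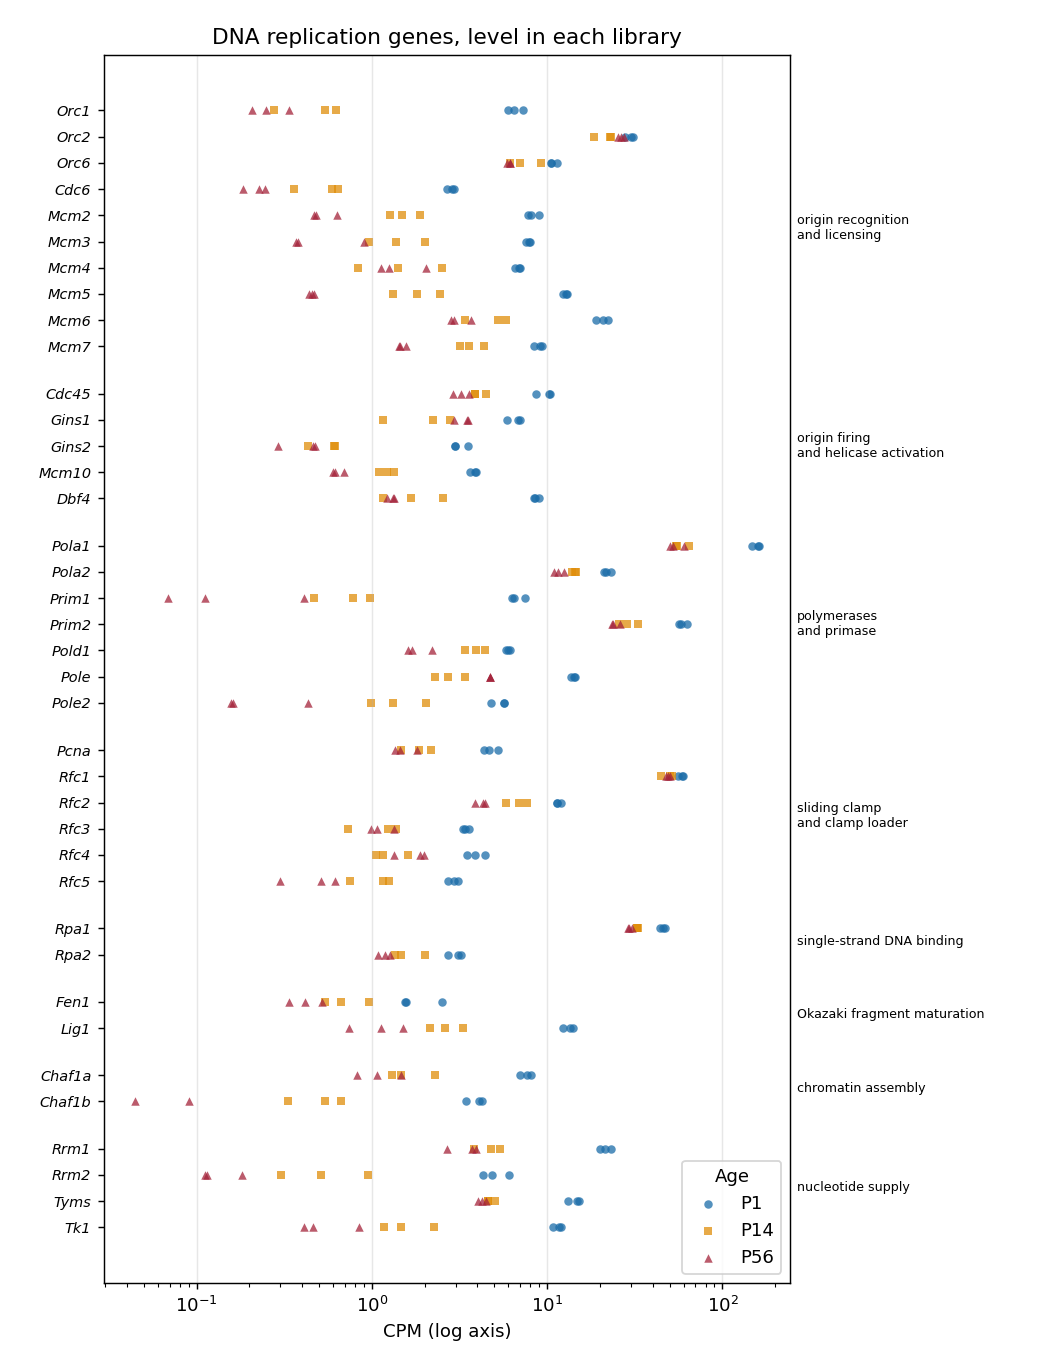
Level of each of the 38 members in each of the 9 libraries, in CPM on a log axis, with circles for P1, squares for P14 and triangles for P56, grouped by role. P1 libraries lie to the right of P14 libraries for every member, and Pola1, Prim2, Rfc1, Rpa1 and Orc2 keep the highest levels at P56. Chaf1b in P56 replicate 2 had 0 counts and is not drawn.

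Most markers of other cell types moved the opposite way over the first interval and the same way over the second. Of the 32 markers, 25 were higher (28.4% of all genes) and 2 lower (27.5%) at P14 than at P1 (median 1.92). From P14 to P56, 23 fell (28.5% of all genes) and 0 rose (27.5%) by edgeR's test (median −2.19). Cell types differed. Of 8 fibroblast markers, 4 were called higher at P14. Of 6 leukocyte markers, 0 were called lower after P14 by edgeR's test (median −0.48), and 4 were higher at P56 than at P1. Among the P14 libraries, replicate 1 had the highest marker score (mean log2 level of the markers, 3.91, against 3.38 and 2.76 in replicates 2 and 3). It also had the highest level of 30 of the 38 members, and replicate 3 had the lowest level of 21. The share of all genes in these orders is not given here, so the counts are not read as particular to the members. Among the P56 libraries, replicate 1 had the highest marker score (2.12). It had the highest level of 19 members and the lowest level of 13. With the marker score as a term in the fit, 36 members still fell from P1 to P14 and 37 from P1 to P56. The 2 whose first fall was no longer called were Pold1 (−0.32, adjusted p = 0.275) and Rfc1 (−0.24, adjusted p = 0.102). From P14 to P56 only 5 then fell (Mcm5, Mcm7, Pold1, Rfc2 and Tk1), 2 rose (Mcm4 and Pole), and the median was −0.12. In that fit 16.5% of all genes fell and 17.2% rose over this interval, so the members' share of falls was not above that of all genes. The lowest P14 score exceeded the highest score of the other ages (2.26), so marker content and the P14 age cannot be fully told apart.

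**Figure D2:**
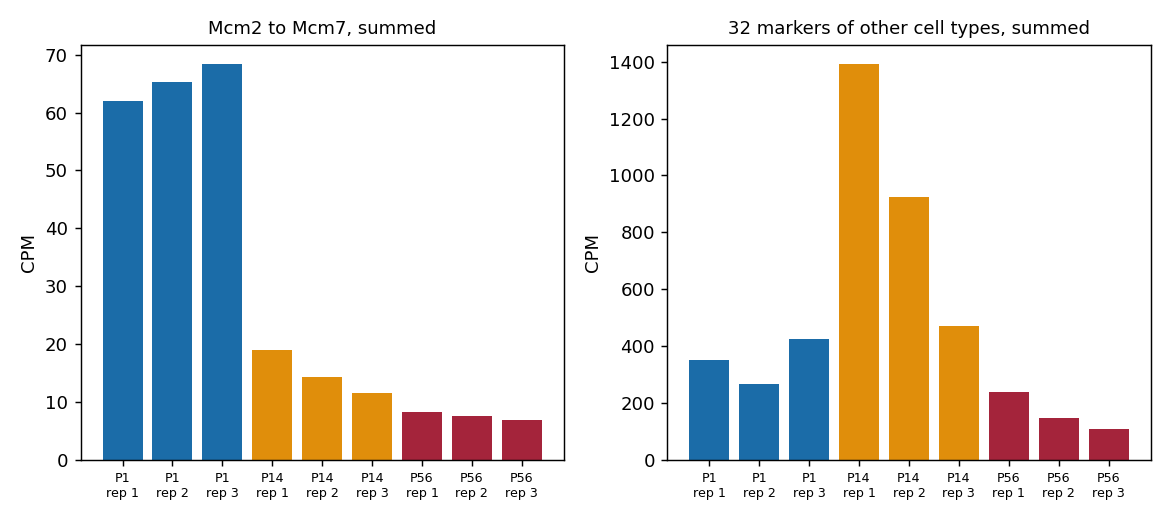
Summed CPM of Mcm2 to Mcm7 (left) and of 32 markers of other cell types (right), with 1 bar per library and colour for age. The helicase sum spans 62.0 to 68.3 CPM in P1, 11.6 to 19.0 in P14 and 6.93 to 8.29 in P56 libraries, whereas the marker sum is highest at P14.

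Among origin recognition and licensing genes, the MCM helicase and the loader genes Orc1 and Cdc6 fell steeply, while Orc2 and Orc6 fell least. All 10 measured genes fell from P1 to P14 (27.5% of all genes, median −2.25). From P14 to P56, 7 fell (28.5% of all genes) and 1 rose (27.5%). Mcm5 (ENSMUSG00000005410, chromosome 8 75109569 to 75128439 in GRCm38) stood at 12.3, 13.0 and 12.9 CPM in the P1 libraries, 2.45, 1.81 and 1.32 at P14 and 0.453, 0.436 and 0.468 at P56. The 3 ages did not overlap, and the gene reached 3.55% of its P1 level by P56. Mcm5 fell by 2.77 ± 0.18 in the first interval (adjusted p = 2.1e-06) and by 2.04 ± 0.22 in the second (adjusted p = 6.55e-05). The 6 subunits of the ring act as 1 hexamer, yet their transcripts fell by different amounts from P1 to P56, from −2.21 ± 0.34 for Mcm4 and −2.60 ± 0.14 for Mcm7 to −3.96 ± 0.19 for Mcm2 and −4.81 ± 0.21 for Mcm5. The difference between P14 and P56 was within its error for Mcm4 (1.58 ± 0.852 CPM at P14 and 1.47 ± 0.496 at P56, −0.11 ± 0.36, adjusted p = 0.809), with a wide spread between libraries at P14 (2.50, 1.41 and 0.828 CPM). Mcm6 fell by 0.62 ± 0.19 after P14, a call lost without P14 replicate 1 or 2, without P56 replicate 1 or 3, with only the 2 ages compared and with the marker score as a term (0.00458, adjusted p = 0.994).

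Orc1, the subunit of the origin recognition complex whose amount changes over the cell cycle in many cells, had the largest fall of any member in the first interval. Its P1 libraries held 5.96, 6.46 and 7.31 CPM, its P14 libraries 0.537, 0.622 and 0.276, and its P56 libraries 0.249, 0.207 and 0.334. P1 stood clear of both later ages, which overlapped. The fall after P14 (−0.86 ± 0.32, adjusted p = 0.0438) lost its call in 10 of 16 alternatives, among them the omission of any P1 library, of P14 replicate 1 or 2 or of P56 replicate 1 or 2. Orc2, a core subunit of the same complex (ENSMUSG00000026037), held 27.7, 29.9 and 30.9 CPM at P1, 22.7, 18.6 and 23.0 at P14 and 27.2, 26.5 and 25.5 at P56. It fell by 0.46 ± 0.09 and then rose by 0.30 ± 0.09 (adjusted p = 0.0186), a rise not called without P14 replicate 2 or with the marker score as a term (adjusted p at most 0.18 over the alternatives). Cdc6, the ATPase that works with the complex to load MCM, fell from 2.83 ± 0.128 to 0.531 ± 0.151 and then to 0.218 ± 0.0315 CPM. Its second fall was not called with the marker score as a term (−0.52, adjusted p = 0.507). Orc6 fell by 0.54 ± 0.14 to P14 and stood at −0.29 ± 0.14 after it (adjusted p = 0.102).

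The factors that fire origins and turn on the helicase fell by P14 and 2 of 5 were not past the threshold afterwards. All 5 fell from P1 to P14 (27.5% of all genes, median −1.66), and 2 fell (28.5% of all genes) and 1 rose (27.5%) after P14. Gins2, a GINS subunit, stood at 2.99, 2.98 and 3.51 CPM at P1, 0.613, 0.433 and 0.607 at P14 and 0.476, 0.459 and 0.290 at P56. Its libraries overlapped between the later ages, and the change there was −0.43 ± 0.25 (adjusted p = 0.173). Gins1, another subunit of the same complex, fell from 5.93, 6.77 and 6.97 CPM to 2.79, 1.16 and 2.23, and then stood at 2.92, 3.54 and 3.50. That rise of 0.68 ± 0.26 (adjusted p = 0.0435) lost its call in 9 of 16 alternatives, including the omission of any P1 library, of P14 replicate 2 or 3 or of P56 replicate 2 or 3. Dbf4, the activating subunit of the firing kinase, fell by 2.26 ± 0.22 to P14. Mcm10, which helps the active helicase to separate the strands, fell in both intervals (−1.64 ± 0.14 and −0.94 ± 0.16). With the marker score as a term its second fall was not called (−0.75, adjusted p = 0.139). Cdc45, the helicase cofactor, fell by 1.26 ± 0.12 to P14, and its later fall of 0.34 ± 0.13 (adjusted p = 0.0478) lost its call in 10 of 16 alternatives, among them the omission of each library except P14 replicate 1 and P56 replicate 2.

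The polymerase genes separated by subunit. All 7 fell to P14 (27.5% of all genes, median −1.43), and 5 fell (28.5% of all genes) and 1 rose (27.5%) after it. Prim1, the catalytic primase subunit (ENSMUSG00000025395), held 6.31, 6.44 and 7.46 CPM at P1, 0.971, 0.784 and 0.469 at P14 and 0.408, 0.0689 and 0.111 at P56. The ages did not overlap, and the last values rest on 18, 3 and 5 counts. The fall of Prim1 after P14 was not called with the marker score as a term (−0.28, adjusted p = 0.78). Prim2, the regulatory primase subunit, fell far less, from 59.0 ± 3.31 to 29.0 ± 3.80 and 24.3 ± 1.49 CPM, and its fall after P14 (−0.25 ± 0.10, adjusted p = 0.047) was lost in 10 of 16 alternatives, among them the omission of any P1 library, of P14 replicate 1 or 2 or of P56 replicate 2 or 3. Pola2, the accessory subunit of polymerase α, had the smallest fall of this group from P1 to P56, with 21.1, 23.1 and 21.8 CPM at P1, 14.6, 13.8 and 14.4 at P14 and 10.9, 11.5 and 12.5 at P56. The 3 ages of Pola2 did not overlap (−0.62 ± 0.08 and −0.30 ± 0.08). Its second fall was not called with the marker score as a term (−0.45, adjusted p = 0.0557). Pola1, its catalytic partner, fell by 1.43 ± 0.09 and then stood at −0.10 ± 0.09 (adjusted p = 0.391).

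Of the polymerase ε genes, Pole rose and Pole2 fell after P14, and the small subunits Pole3 and Pole4, from the list of other replication genes, were not past the threshold (−0.29 ± 0.19 and 0.02 ± 0.13). Pole, the catalytic subunit of the leading-strand enzyme (ENSMUSG00000007080, chromosome 5 110286306 to 110337474), stood at 14.2, 14.4 and 13.6 CPM at P1, 3.40, 2.70 and 2.29 at P14 and 4.71, 4.73 and 4.72 at P56. Every P56 library lay above every P14 library and below every P1 library. Pole fell by 2.33 ± 0.13 and then rose by 0.75 ± 0.14 (adjusted p = 0.00113), and the rise was called in all 16 alternatives. Pole overlaps the annotated genes Gm26277 and Gm15791 on its strand, and the sources used here do not say how shared reads were counted. Pole2, the second subunit of that enzyme, fell over the same interval, from 1.45 ± 0.537 to 0.249 ± 0.157 CPM (−2.54 ± 0.39, adjusted p = 0.000459). That fall was not called with the marker score as a term (−1.17, adjusted p = 0.117). Pold1, the catalytic subunit of the lagging-strand polymerase δ, fell by 0.61 ± 0.15 and then by 1.08 ± 0.16.

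The clamp and its loader fell to P14 in all 6 genes (27.5% of all genes, median −1.41). After P14, 2 fell (28.5% of all genes) and 0 rose (27.5%) by edgeR's test. Pcna, the sliding clamp, held 4.73 ± 0.448, 1.83 ± 0.356 and 1.54 ± 0.242 CPM at the 3 ages. Rfc1, the large subunit of the clamp loader, was the least changed member over the first interval, with 59.9, 58.8 and 55.6 CPM at P1, 50.007, 44.3 and 51.3 at P14 and 49.9, 48.6 and 47.8 at P56. For Rfc1 the P1 libraries lay above the rest, and the later ages overlapped (0.01 ± 0.07, adjusted p = 0.94). Rfc5, a small subunit, had the largest fall of the group from P1 to P56, with 2.70, 2.92 and 3.10 CPM at P1, 1.25, 1.16 and 0.745 at P14 and 0.612, 0.298 and 0.512 at P56, and no overlap between ages. Its fall after P14 was not called with the marker score as a term (−0.29, adjusted p = 0.693). Rfc2 fell by 0.77 ± 0.11 and 0.69 ± 0.12, whereas Rfc3 and Rfc4 fell by 1.61 ± 0.22 and 1.62 ± 0.21 and then stood at 0.02 ± 0.24 and 0.44 ± 0.22, neither past the threshold.

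Genes that protect single-stranded DNA kept more of their P1 level than those that seal the new strands or wrap them into chromatin. Rpa1, the large subunit of replication protein A, held 43.8, 47.3 and 45.9 CPM at P1, 33.0, 32.5 and 32.3 at P14 and 28.8, 29.2 and 30.3 at P56. The ages did not overlap, but the fall after P14 was small (−0.15 ± 0.06, adjusted p = 0.0487) and lost its call in 14 of 16 alternatives, including the omission of any library. Rpa2, its middle subunit, held 3.08, 2.71 and 3.22, then 2.02, 1.35 and 1.46, then 1.27, 1.08 and 1.18 CPM. Lig1, the ligase that joins Okazaki fragments, fell from 13.5, 14.1 and 12.3 CPM to 3.30, 2.62 and 2.15 and to 1.49, 1.13 and 0.735. Fen1, the nuclease that trims those fragments, stood at 1.53, 1.57 and 2.50, then 0.664, 0.541 and 0.966, then 0.521, 0.413 and 0.334 CPM. Lig1 fell in both intervals (−2.30 ± 0.22 and −1.27 ± 0.24), and Fen1 in the first (−1.37 ± 0.29) but not past the threshold in the second (−0.77 ± 0.33, adjusted p = 0.07). With the marker score as a term the second fall of Lig1 was not called (−0.42, adjusted p = 0.407).

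Chaf1b, a subunit of the chromatin assembly factor that deposits histones behind the fork (ENSMUSG00000022945), showed the largest fall of any member over the whole span. It held 4.22, 3.43 and 4.09 CPM at P1, 0.664, 0.541 and 0.331 at P14 and 0.0906, 0 and 0.0446 at P56. The P56 values rest on 4, 0 and 2 counts, and a count of 0 allows up to 0.0689 CPM in that library. Chaf1b fell by 2.92 ± 0.32 and then by 3.43 ± 0.55 (adjusted p = 0.000571). The second fall of Chaf1b was not called with the marker score as a term (−2.02, adjusted p = 0.0696). Its partner Chaf1a held 7.68, 6.97 and 8.03 CPM at P1, 2.27, 1.30 and 1.46 at P14 and 1.06, 0.827 and 1.47 at P56, and the later ages overlapped (−0.58 ± 0.26, adjusted p = 0.0768).

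The genes that make deoxynucleotides fell in the first interval in 4 of 4 cases (27.5% of all genes, median −2.52). In the second, 2 fell (28.5% of all genes) and 0 rose (27.5%) by edgeR's test. Rrm2, the small subunit of ribonucleotide reductase that is made in S phase (ENSMUSG00000020649), held 4.84, 4.32 and 6.05 CPM at P1, 0.945, 0.514 and 0.303 at P14 and 0.181, 0.115 and 0.111 at P56. The ages did not overlap, and Rrm2 was at 2.68% of its P1 level by P56. Its fall after P14 was not called with the marker score as a term (0.0235, adjusted p = 0.99). Tk1, thymidine kinase of the salvage pathway, fell by 2.82 ± 0.26 and 1.50 ± 0.30. Tyms, which makes thymidylate, held 13.2, 14.7 and 15.1 CPM at P1, 5.01, 4.60 and 4.61 at P14 and 4.01, 4.48 and 4.26 at P56. The P1 libraries of Tyms lay far above the rest, and P56 just below P14. Its change after P14 was −0.16 ± 0.10 (adjusted p = 0.204), and that of Rrm1, the large reductase subunit, −0.44 ± 0.17 (adjusted p = 0.05, not past the threshold before rounding).

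**Figure D3:**
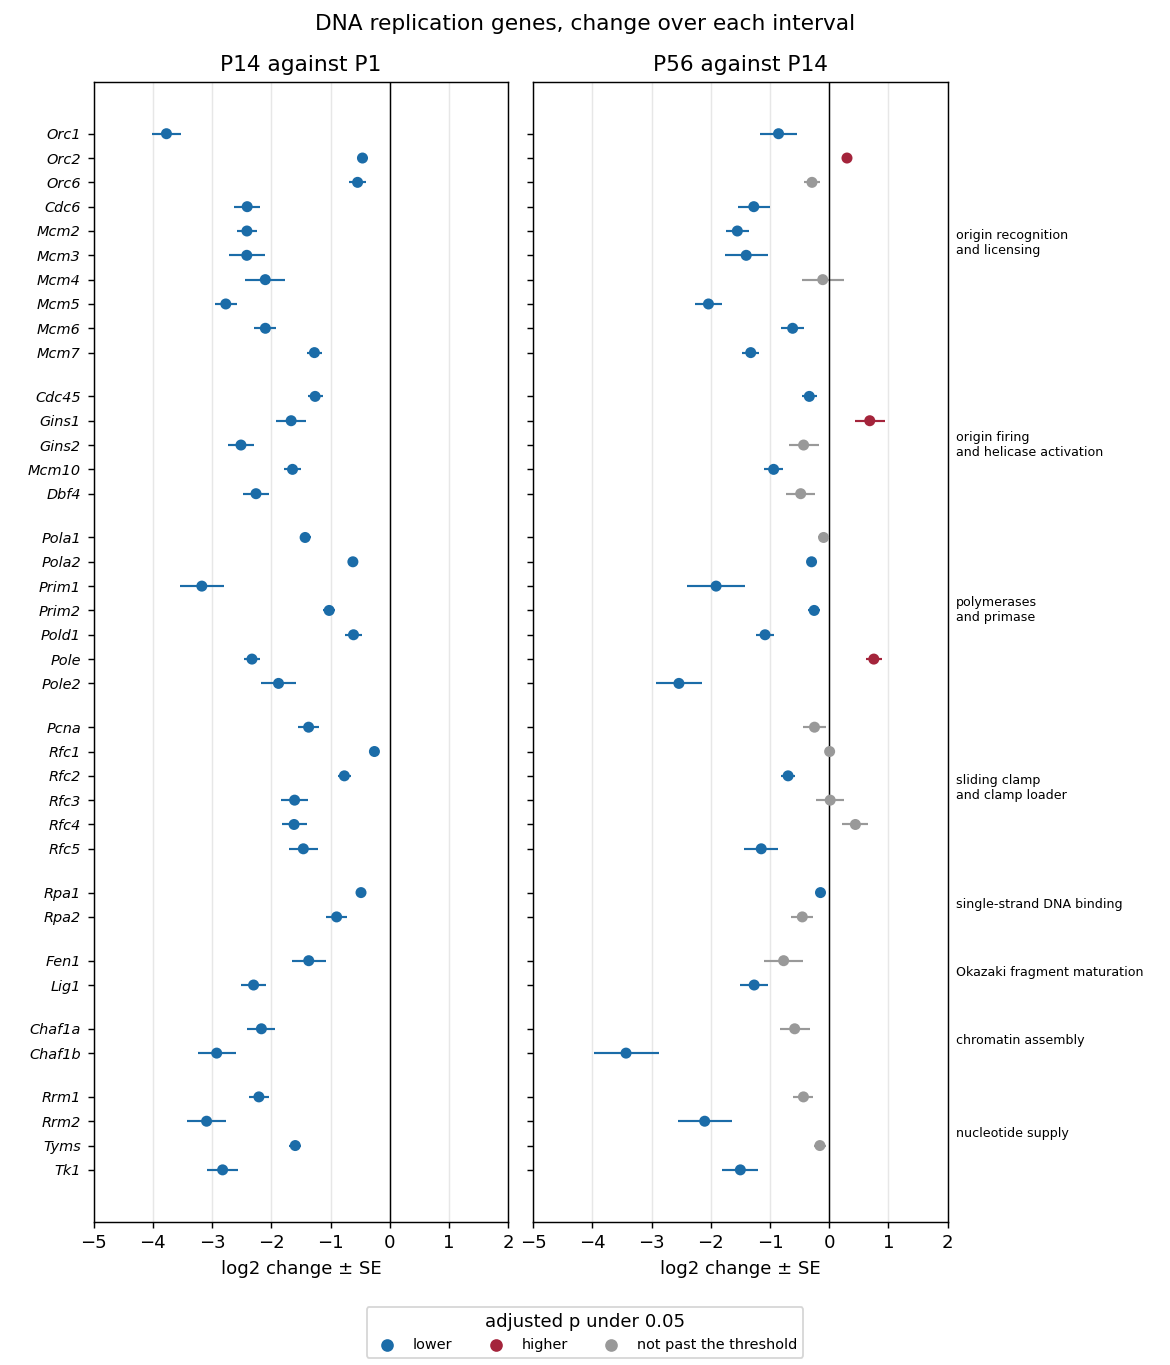
Fitted log2 change of each member from P1 to P14 (left) and from P14 to P56 (right), with bars of ± SE and 3 libraries per age. All 38 points lie below 0 on the left, and on the right 21 are called lower, 3 higher (Orc2, Gins1 and Pole) and 14 neither.

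Whether the total fall was smaller in the second interval was tested by subtracting each first-interval change from the second-interval change. The intervals are of unequal length, so this does not compare rates per day. The difference was positive and called in 21 members (24.1% of all genes) and negative and called in 0 (26% of all genes) by edgeR's test, with 0 negative at an unadjusted p under 0.05 and 0 by DESeq2. Its median was 1.00, against −0.01 over all genes. Pole had the largest difference (3.08 ± 0.24), followed by Orc1 (2.91 ± 0.51) and Gins1 (2.35 ± 0.46). Mcm7, Pole2, Pold1 and Chaf1b had values below 0 that were not past the threshold (−0.05 ± 0.23 to −0.66 ± 0.59). Positive differences were called in 16 members without P14 replicate 3 (21.3% of all genes), in 15 without P14 replicate 2 (18.5%) and in 27 without P14 replicate 1 (25%).

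Ratios within a library compare subunits of a complex. Library scaling cancels in them only where both levels lie well above the pseudocount of 0.5 CPM. Of 7 pairs measured, 6 ratios differed between the 3 ages. The test was an exact permutation over all 1680 ways to assign the 9 libraries, with the F ratio as its statistic and p adjusted over the 7 pairs. The smallest p this test can give is 0.00357. On the log2(CPM + 0.5) scale the ratio of Orc1 to Orc2 was −2.09 ± 0.0685 in P1, −4.50 ± 0.418 in P14 and −5.14 ± 0.158 in P56 libraries (adjusted p = 0.00625), so Orc1 fell relative to Orc2. Prim1 fell relative to Prim2 by 2.15 from P1 to P56 (adjusted p = 0.00625). Where a gene falls below the pseudocount this scale understates the change, and the fitted changes were −5.08 ± 0.43 for Prim1 and −1.28 ± 0.10 for Prim2. Pole2 stood higher relative to Pole at P14 (−0.78 ± 0.146) than at P1 (−1.31 ± 0.143) and lower at P56 (−2.82 ± 0.291). The adjusted p of 0.00625 is for the 3 ages together and does not test the step from P1 to P14. The fitted changes over that step were −1.88 ± 0.30 for Pole2 and −2.33 ± 0.13 for Pole. With the marker score as a term they were −2.98 and −2.61, the opposite order. Rfc1 rose relative to Rfc4 by 0.74 (adjusted p = 0.015). Rpa2 and Rpa1 did not pass (−0.44 from P1 to P56, adjusted p = 0.0536). The ratio of Rrm2 to Rrm1 passed (−0.63 from P1 to P56, adjusted p = 0.0292), but turned to 0.40 with a pseudocount of 2 CPM, which lies above the P14 and P56 levels of Rrm2. It lost its call without P1 replicate 1 or 3, P14 replicate 2, or P56 replicate 1 or 2. The fitted changes from P1 to P56 were −5.20 ± 0.39 for Rrm2 and −2.64 ± 0.17 for Rrm1.

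**Figure D4:**
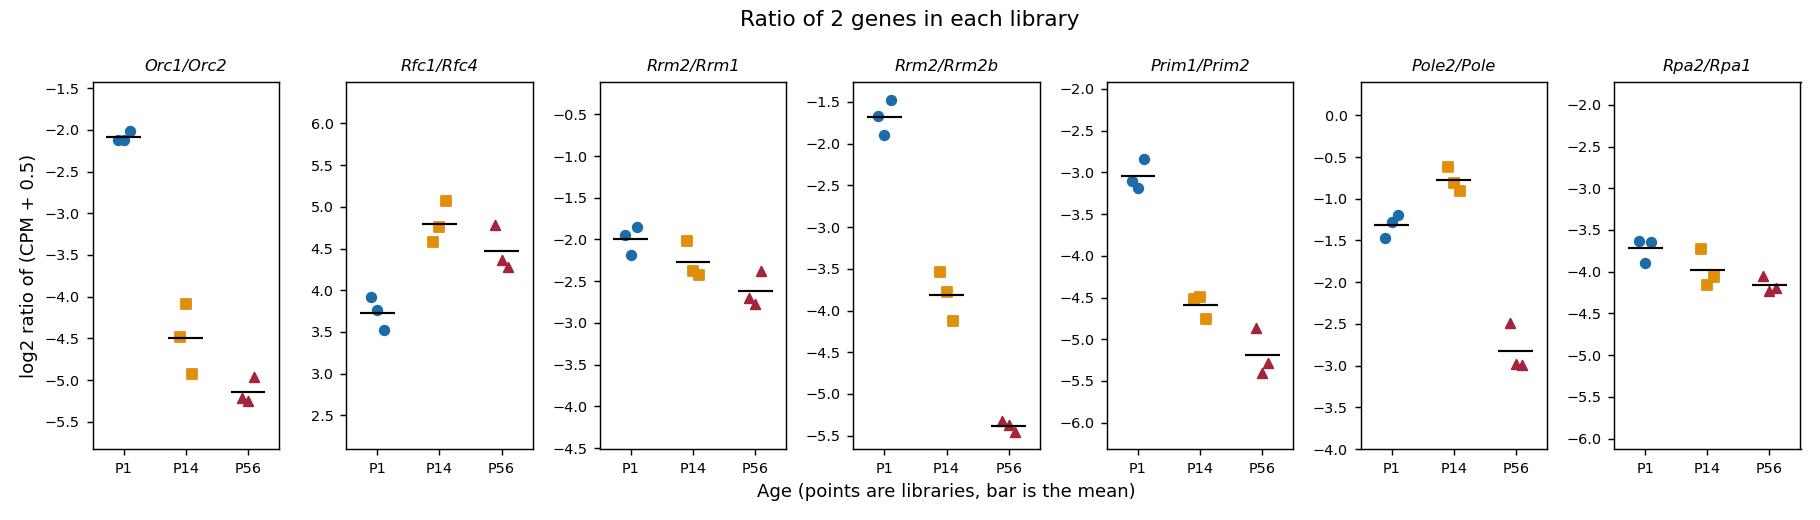
Log2 ratio of (CPM + 0.5) of 2 genes in each library for 7 pairs, with points for libraries, bars for the mean of an age and a separate axis of equal length for each pair. Rrm2 relative to Rrm2b falls from −1.68 at P1 to −5.38 at P56, and Pole2 relative to Pole is highest at P14.

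Rrm2b, the reductase subunit that quiescent cells use for repair and mitochondrial DNA, held 16.5, 17.5 and 17.8 CPM at P1, 16.4, 13.4 and 13.5 at P14 and 26.9, 25.004 and 26.2 at P56. The P56 libraries lay above all others. Rrm2b rose by 0.59 ± 0.09 from P1 to P56 (adjusted p = 0.000236), and the ratio of Rrm2 to Rrm2b fell by 3.70 on the log2(CPM + 0.5) scale (adjusted p = 0.00625, exact permutation test) and by 5.04 with a pseudocount of 0.1 CPM, since Rrm2 at P56 lay below 0.5 CPM.

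Among 47 other genes of nuclear replication, 41 were lower (27.5% of all genes) and 3 higher (28.4%) at P14 than at P1 (median −0.84). From P14 to P56, 14 fell and 10 rose (median −0.03), near the 28.5% and 27.5% of all genes. From P1 to P56, 35 fell (31.7% of all genes) and 4 rose (30.9%), with a median of −0.75. The largest falls to P14 were those of Dscc1, part of an alternative clamp loader (−3.19 ± 0.35), Clspn, the checkpoint adaptor claspin (−3.04 ± 0.31), Asf1b, a histone chaperone (−2.97 ± 0.21), and Ticrr, which helps recruit Cdc45 (−2.91 ± 0.21). Ticrr, Clspn, Dscc1 and the firing kinase gene Cdc7 fell again after P14 (−3.41 ± 0.35, −2.99 ± 0.46, −2.54 ± 0.57 and −2.33 ± 0.27). Gmnn, which encodes geminin, the inhibitor of Cdt1, stood at 6.13, 6.33 and 6.11 CPM at P1, 3.86, 3.81 and 4.14 at P14 and 13.8, 11.1 and 11.7 at P56. Its ages did not overlap, and it rose by 1.63 ± 0.11 after P14 (adjusted p = 3.66e-06). Rpa3, the small subunit of replication protein A, and the helicase gene Mcm8 also rose after P14 (0.81 and 0.70). Pold4, the smallest subunit of polymerase δ, rose from P1 to P14 (0.62 ± 0.23) and from P1 to P56 (1.136 ± 0.22). Dguok, a kinase that salvages nucleosides in mitochondria and stood among the 47 under nucleotide metabolism, rose by 0.41 ± 0.11 to P14.

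Values of the remaining large subunits of the origin recognition complex are set beside those of Orc2, a choice made after their values were seen. Orc3, Orc4 and Orc5 fell by 0.36, 0.43 and 0.44 from P1 to P14 and rose by 0.44, 0.56 and 0.47 from P14 to P56. From P1 to P56 their changes were 0.08, 0.13 and 0.04, none past the threshold.

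Mitochondrial DNA is copied by a separate set of enzymes. Calls among its 11 genes were about as frequent as among all genes from P1 to P14 and less frequent in the other comparisons. At P14, 4 were lower than at P1 (27.5% of all genes) and 3 higher (28.4%), with a median of −0.01. From P14 to P56, 1 fell (28.5% of all genes) and 2 rose (27.5%), with a median of −0.05. From P1 to P56, 3 fell (31.7% of all genes) and 2 rose (30.9%), with a median of −0.05. Polrmt, the mitochondrial RNA polymerase that also makes primers, rose by 0.78 ± 0.15 to P14, and Twnk, the helicase, by 0.45 ± 0.12. Tefm, a mitochondrial elongation factor, rose by 0.74 from P1 to P56. None of the 9 genes of this list with a promoter window held the E2F letters, against 4.46% of genes of the count table with a window. A list of 9 genes is too small to tell 0 from that share. The letters were in 9 of 38 other nuclear replication genes with a window (23.7%) and in 1 of 19 mitosis genes (5.26%). For comparison, 20 of 20 mitosis genes fell in each interval (27.5% and 28.5% of all genes). Their medians were −2.24 and −2.47, whereas the replication members had medians of −1.65 and −0.53. The mean log2 level of the mitosis genes was 1.20, 0.95 and 0.55 in P14 replicates 1, 2 and 3, the same order as the marker score. The orders differed at the other ages. At P1 the mitosis levels were 2.76, 2.79 and 2.96 and the marker scores 2.10, 1.79 and 2.26. At P56 they were −0.22, −0.15 and −0.34 for mitosis and 2.12, 1.58 and 1.26 for the markers. Values for the mitosis genes with the marker score as a term are not given here.

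**Figure D5:**
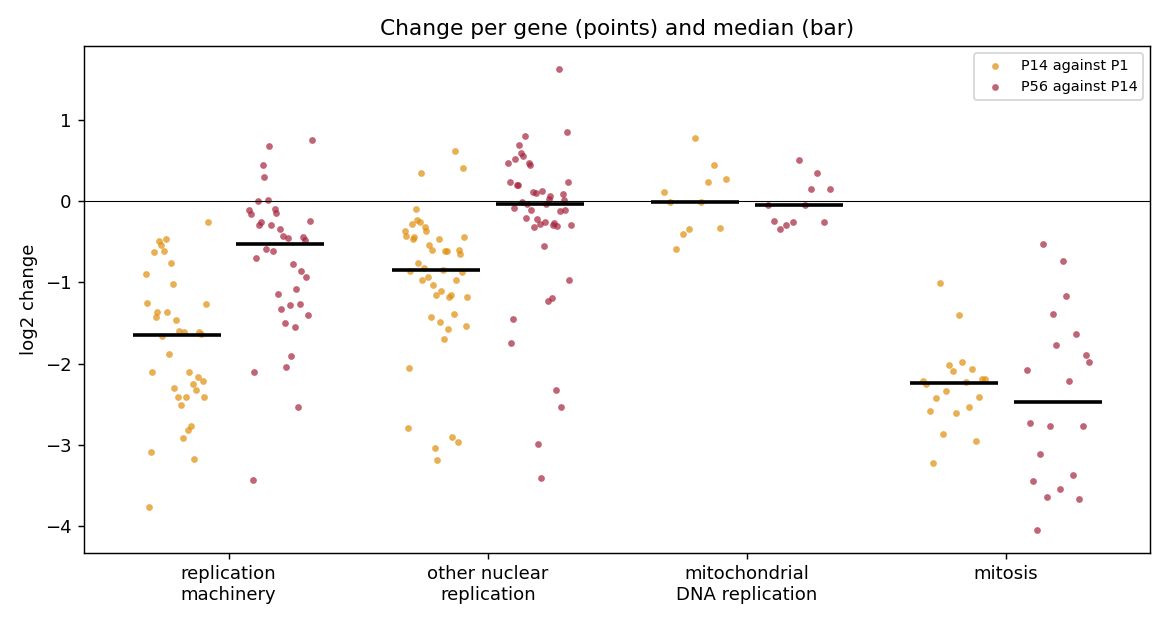
Log2 change of each gene (points) and the median of each list (bars) from P1 to P14 and from P14 to P56, for 38 replication members, 47 other nuclear replication genes, 11 mitochondrial DNA replication genes and 20 mitosis genes. The mitochondrial genes lie around 0 in both intervals, and the mitosis genes lie below 0 in both.

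Levels also differed greatly between members. Per kilobase of annotated exon at P1, Pola1 (17.7 CPM per kb), Prim2 (9.93), Rfc1 (9.65), Rpa1 (8.18) and Orc2 (7.65) were high, and Mcm10 (0.495) and Cdc6 (0.542) low. Pola1 and Prim2 span 327 and 216 kb of the genome. Across the 38 members the P1 level in CPM rose with gene span (Spearman rho 0.65, a description across genes, which share libraries and are not replicates), as it did over 15758 genes of the table (0.47). The log2 change from P1 to P56 was only weakly related to span (rho 0.22). The sources used here do not say whether reads in introns were counted. Of the 38 members, 22 overlap another annotated gene, 11 of them on the same strand, and their levels may include or lack reads of that gene.

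Members with the E2F letters had a median change of −2.10 from P1 to P14 and −3.57 from P1 to P56 (n = 11), and those without had −1.60 and −2.14 (n = 21). The ranges from P1 to P56 overlapped widely, from −4.81 to −1.52 with the letters and from −6.35 to −0.16 without. For CCAAT the medians from P1 to P56 were −2.59 with (n = 20) and −2.67 without (n = 12).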

How the data were processed

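The deposited data were whole-number read counts for 15824 genes in 9 libraries. The tools named, per the submitters' processing notes, were featureCounts 1.4.2, STAR 2.4.0g1 and bcl2fastq 2.17.1.14, with genome build GRCm38. The smallest mean count was 10, so weakly counted genes had been removed. Counts were fitted with edgeR 4.0.16 in R 4.3.3 (filterByExpr, which removed 7 genes, TMM, glmQLFit with age as the only term, all 9 libraries, biological coefficient of variation 13.9%). Alternatives were DESeq2 1.42.0, RLE size factors, other filters, the replicate number or the marker score as a term, only the 2 ages compared, and leaving out each library. Ratios used a pseudocount of 0.5 CPM. The Cdt1 and Gmnn pair could not be computed. Floors (3 counts) cover counting error only. Spans, exon lengths and overlaps come from GENCODE M21 (GRCm38). Members and lists were chosen with earlier results of these data known. Every member may be named, with values per library for the largest and smallest fall of each role, and from other lists the 4 largest called changes per direction. The labels do not say whether pools were collected or processed separately, so p-values measure only the spread between these libraries.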

Additional observations from a re-analysis of the deposited data

How the results depend on the processing

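The count of members that fell was 36 to 38 from P1 to P14 and 37 from P1 to P56 over all alternatives run. With the marker score as a term, 5 members fell from P14 to P56 (16.5% of all genes fell in that fit), and the medians were −1.98 from P1 to P14, −0.12 from P14 to P56 and 1.97 for the difference between the intervals. The cause was not tested. In that fit the change from P14 to P56 turned sign for Orc6 (0.22), Mcm3 (0.0933), Mcm4 (1.70, called), Mcm6 (0.00458), Gins2 (0.0519), Dbf4 (0.55), Pola1 (0.27), Prim2 (0.10), Pcna (0.23), Rfc1 (−0.0151), Rpa2 (0.15), Rrm1 (0.31) and Rrm2 (0.0235), and the difference between the intervals turned for Mcm7 (0.38), Pole2 (1.81), Rfc2 (−0.75) and Chaf1b (2.02). Leaving out 1 library gave 17 to 22 falls and 1 to 4 rises from P14 to P56, with 1 rise without P14 replicate 2. Medians then ranged from −1.88 (without P14 replicate 1) to −1.61 from P1 to P14, and from 0.73 (without P56 replicate 1) to 1.30 (without P14 replicate 1) for the difference. Some members near 0 turned sign when 1 library was left out. From P14 to P56 Mcm4 ranged from −0.42 to 0.39, Rfc1 from −0.0550 to 0.0484 and Rfc3 from −0.21 to 0.20. The difference ranged from −0.25 to 0.21 for Mcm7, −0.13 to 0.26 for Rfc2, −0.0782 to 0.60 for Rfc5 and −1.44 to 0.0394 for Chaf1b. Rfc1 stood at −0.0057 with at least 1 CPM in 3 libraries and at −0.000494 with only the 2 ages compared. The log2 ratio of Rrm2 to Rrm1 from P1 to P56 ranged from −0.75 to −0.55 when 1 library was left out and was 0.40 with a pseudocount of 2 CPM. That of Rpa2 to Rpa1 ranged from −0.53 to −0.39, past the threshold without P1 replicate 2 or P14 replicate 1, and was −0.65, past the threshold, with 0.1 CPM. The fit with the replicate number as a block gave 20 falls and 3 rises from P14 to P56 and 20 positive differences. Deviations from the age means correlated at −0.28 to 0.57 between same-numbered libraries of different ages and at −0.57 to 0.36 between different-numbered ones. With 3 libraries per age these overlapping ranges do not settle whether the numbers pair the libraries. At P56, 6 members (Orc1, Cdc6, Prim1, Pole2, Chaf1b and Rrm2) had fewer than 10 counts in a library, which limits their precision there.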
